A study of Mus musculus with 13 samples.

Results

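The Rab genes code for small GTPases that act as switches on the membranes of a cell. They were followed here in CD8+ T cells with and without the transcription factor Batf, before and after stimulation. The members are the genes whose symbol is Rab, a number and at most 1 further letter, each represented by its brightest probe set over all arrays. This gave 59 of the 18194 genes measured, with no measured level in the rule that picks the genes. The cells were P14 T cells, which carry a transgenic T cell receptor of a single specificity on the C57Bl/6 background, in all 4 groups. Batf-/- cells at day 3 (4 arrays) and wild-type cells at day 3 (4 arrays) had been kept for 3 days on plate-bound antibodies to CD3 and CD28 with IL-2 at 100 U/ml. Batf-/- naive cells (3 arrays) and wild-type naive cells (2 arrays) were taken at day 0. The cells were enriched by magnetic removal of other cells, and the labels do not say whether arrays of a group came from separate mice or cultures, so p-values measure only the spread between arrays.

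A Rab is attached to membranes by prenyl lipids, is switched on by an exchange factor that loads GTP and is switched off by a GTPase activating protein. In its GTP form it binds effectors, which move, tether or fuse the vesicle that carries it, and different Rabs mark different compartments. In cytotoxic T cells the best known member is Rab27a, which helps to dock granules with perforin and granzymes at the plasma membrane. Batf belongs to the AP-1 family and pairs with Jun proteins on DNA.

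All levels below are log2 intensities on arrays labelled with biotin, and all differences are log2 differences of those intensities. Batf, the deleted gene, was at 6.78, 5.56, 5.61 and 6.00 in Batf-/- arrays at day 3, against 8.63, 8.80, 8.83 and 9.19 in wild-type arrays. In naive cells it was at 5.59, 6.06 and 5.94 in Batf-/- arrays, against 9.19 and 9.36 in wild-type arrays. It was thus low in each of the 7 Batf-/- arrays. The 9 CD8 T cell markers measured averaged between 11.2 and 11.8 on every array. The lowest mean, 11.2, was in Batf-/- naive replicate 1. It was 11.7 in each of the other Batf-/- naive arrays and 11.8 and 11.6 in wild-type naive arrays. A group mean below 4.72, the level under which the dimmest 40% of probe sets lie, is called near background. This is a cut on brightness and not a measured detection limit. The size of a difference from such a mean is uncertain and may understate the change in RNA. Of the 59 Rab genes, 47 were above that level in all groups, 8 were below it in all 4 groups and 4 were below it in some. Arrays of bulk cells cannot tell a smaller share of expressing cells from less RNA per cell.

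One naive array stood apart. The mean of 9 neutrophil markers was 7.85 in Batf-/- naive replicate 1, against 4.35 and 5.18 in the other Batf-/- naive arrays and 5.15 and 4.70 in wild-type naive arrays. For 9 monocyte and macrophage markers it was 8.27, 6.65 and 7.25 in Batf-/- naive arrays, against 6.78 and 6.69 in wild-type naive arrays. For 4 NK cell markers it was between 7.05 and 7.73 in Batf-/- naive arrays, against 6.05 to 6.24 in wild-type naive arrays. At day 3 all 3 means lay between 3.80 and 4.61 in both genotypes. Of the 9 neutrophil markers, 8 were near background at day 3 in each genotype, against 3 in Batf-/- naive and 4 in wild-type naive cells. Of the 9 monocyte and macrophage markers, 7 were near background at day 3 in each genotype and 1 in each naive group. B cell markers averaged between 6.34 and 6.79 in Batf-/- naive arrays, against 5.75 to 6.09 in wild-type naive arrays. At an adjusted p below 0.05 in limma, 3 of these 9 and 2 of the 4 NK cell markers were higher in Batf-/- naive cells. That held for 0.813% of all genes. From naive to day 3 in Batf-/- cells, 7 of 9 B cell, 8 of 9 dendritic cell, 5 of 6 platelet and 3 of 4 erythroid markers fell. In wild-type cells 5, 7, 5 and 2 of them fell. Over all genes 23.2% fell in Batf-/- and 23.0% in wild-type cells. Of 5 CD4 T cell markers, 4 rose in Batf-/- and 2 in wild-type cells, and 0 fell. Of the 9 CD8 T cell markers, 4 fell in each genotype, and 2 rose in Batf-/- and 0 in wild-type cells. The shares of all genes that rose were 23.8% and 22.4%. Naive arrays thus carried more signal of markers of other cell types than day 3 arrays, except those of CD4 T cells. The part of all these markers in the Rab differences below was not tested. Values without the array that stood apart are given for some genes. They keep the difference in NK and B cell markers, whose means were higher in every Batf-/- naive array.

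The day 3 arrays address which Rab genes differ in stimulated cells that lack Batf. Rab4a, Rab34, Rab6b and Rab10 fell and no Rab gene rose, by limma's moderated test with an adjusted p below 0.05. That is 6.78% of the Rab genes, where 1.37% of all genes passed in either direction, 0.709% lower and 0.665% higher. The 4 genes belong to 4 different compartments. The median difference was -0.05 over the Rab genes and 0.01 over all genes, and 40 of the 59 Rab genes were below 0.

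Rab4a sits on early and recycling endosomes and is known for the fast return of receptors to the plasma membrane. Its level was 5.86, 5.56, 5.08 and 5.47 in Batf-/- arrays at day 3, against 6.92, 6.86, 6.95 and 6.86 in wild-type arrays. The groups did not overlap, and the Batf-/- arrays varied more among themselves. Rab4a was 2.64-fold lower, with a difference of -1.40 ± 0.17 (SE, n = 4 each, adjusted p = 0.00103 in limma). In naive cells it was at 7.48, 6.78 and 6.88 in Batf-/- arrays, against 7.61 and 7.87 in wild-type arrays. All Batf-/- naive arrays were below both wild-type naive arrays, but the difference of -0.69 ± 0.21 did not pass (limma adjusted p = 0.173, n = 3 and 2). The other bright probe set for Rab4a gave -1.34 at day 3 and also passed. The paralog Rab4b was at 8.51 in Batf-/- and 8.60 in wild-type cells at day 3 on average, and its difference of -0.09 ± 0.06 did not pass.

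Rab34 has been linked to the position of lysosomes near the Golgi, to macropinocytosis and to primary cilia. In Batf-/- arrays at day 3 it was at 5.68, 5.62, 5.91 and 5.67, against 6.50, 6.43, 6.39 and 6.27 in wild-type arrays. Every Batf-/- array was below every wild-type array. The difference was -0.68 ± 0.14, or 1.60-fold lower (n = 4 each, limma adjusted p = 0.0333). In naive cells Rab34 was near background in both genotypes, at 4.07, 4.29 and 3.48 in Batf-/- and 3.92 and 4.17 in wild-type arrays. A second Rab34 probe set also gave -0.68 at day 3. The call of the first was lost when any 1 of the 8 day 3 arrays was left out, with adjusted p between 0.0527 and 0.118.

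Rab6b, a relative of the Golgi Rab Rab6a that is best known from neurons, was at 6.66, 6.63, 6.53 and 6.64 in Batf-/- arrays at day 3. Wild-type arrays had 7.12, 7.21, 7.11 and 7.09. The gap between the groups was wide against their spread, and the difference was -0.52 ± 0.06 (n = 4 each, limma adjusted p = 0.00121). In naive cells the levels were 7.56, 7.58 and 7.44 in Batf-/- arrays, against 8.0 and 7.78 in wild-type arrays. These did not overlap either, with a difference of -0.36 that just missed the threshold (limma adjusted p = 0.0581, n = 3 and 2). At day 3 the other bright Rab6b probe sets gave -0.45 and -0.31 without passing. Rab6a differed by -0.06 ± 0.08 between the genotypes at day 3 and did not pass.

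Rab10 takes part in exocytosis, including the delivery of glucose transporters in fat cells. It was at 10.58, 10.60, 10.48 and 10.53 in Batf-/- arrays at day 3, against 10.78, 10.86, 10.75 and 10.82 in wild-type arrays. The groups did not overlap, but the difference was small, -0.25 ± 0.06 or 1.19-fold lower (n = 4 each, limma adjusted p = 0.0464). The call was lost in 15 of 24 alternatives, 11 of which left out 1 array. One other Rab10 probe set passed with -0.39 and another gave -0.31.

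**Figure D1:**
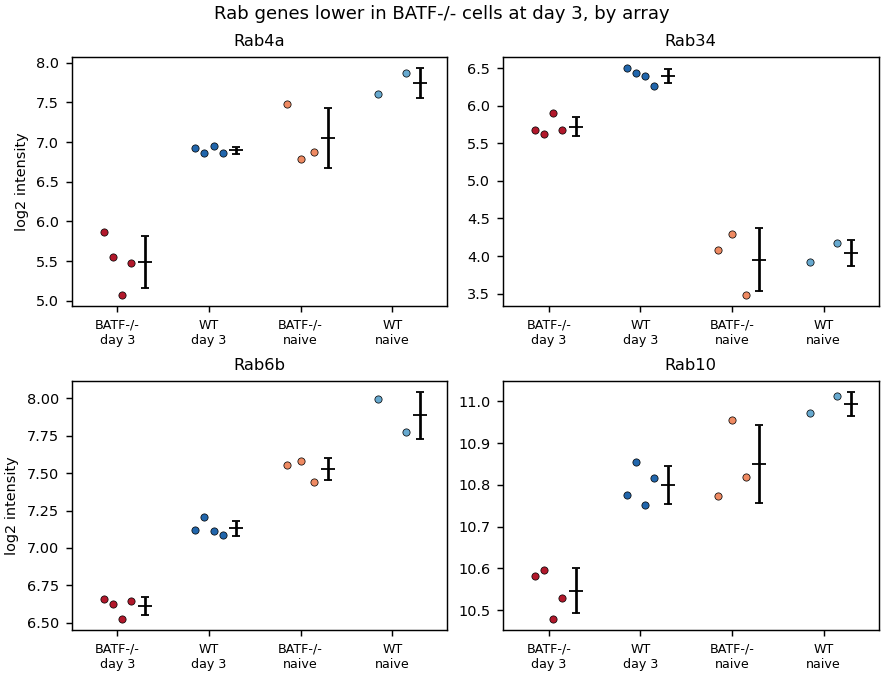
Log2 intensity of the Rab genes that passed between the genotypes at day 3, by array (points), with the group mean and SD beside them and the groups in the order Batf-/- day 3, wild type day 3, Batf-/- naive and wild type naive. For Rab4a, Rab34, Rab6b and Rab10 all 4 Batf-/- arrays at day 3 lie below all 4 wild-type arrays.

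Because Batf and Jun dimers bind AP-1 motifs, the promoters of Rab34, Rab6b and Rab10 are shown together with that of Rab33a, the Rab gene that rose most on stimulation. They come from RefSeq (GRCm38.p6), run 5′ to 3′ on the strand of the gene from 250 bases before the transcription start to 50 after it, and carry matches to TGANTCA in capitals. The windows lie at chr11:78188177-78188476 (plus strand) for Rab34, chr9:103111824-103112123 (plus) for Rab6b, chr12:3309920-3310219 (minus) for Rab10 and chrX:48519035-48519334 (plus) for Rab33a. Rab34 has 2 listed promoters, and the one with a match is shown.
Rab34: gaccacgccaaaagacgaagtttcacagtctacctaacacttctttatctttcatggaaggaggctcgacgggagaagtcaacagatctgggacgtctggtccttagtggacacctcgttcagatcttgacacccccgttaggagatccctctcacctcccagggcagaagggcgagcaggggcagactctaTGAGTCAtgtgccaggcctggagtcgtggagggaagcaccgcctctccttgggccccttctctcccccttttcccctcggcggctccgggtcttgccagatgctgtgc
Rab6b: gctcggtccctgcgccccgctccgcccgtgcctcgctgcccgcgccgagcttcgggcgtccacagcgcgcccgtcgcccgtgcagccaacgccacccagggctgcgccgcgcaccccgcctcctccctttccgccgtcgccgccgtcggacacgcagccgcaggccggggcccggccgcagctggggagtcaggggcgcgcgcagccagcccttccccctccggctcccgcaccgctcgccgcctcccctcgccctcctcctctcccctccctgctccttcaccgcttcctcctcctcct
Rab10: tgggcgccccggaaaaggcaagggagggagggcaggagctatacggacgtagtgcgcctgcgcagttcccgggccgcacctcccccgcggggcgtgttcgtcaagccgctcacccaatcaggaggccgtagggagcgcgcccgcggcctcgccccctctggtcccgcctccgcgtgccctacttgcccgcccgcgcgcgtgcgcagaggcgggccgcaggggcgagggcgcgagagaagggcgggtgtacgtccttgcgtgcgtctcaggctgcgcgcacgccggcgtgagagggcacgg
Rab33a: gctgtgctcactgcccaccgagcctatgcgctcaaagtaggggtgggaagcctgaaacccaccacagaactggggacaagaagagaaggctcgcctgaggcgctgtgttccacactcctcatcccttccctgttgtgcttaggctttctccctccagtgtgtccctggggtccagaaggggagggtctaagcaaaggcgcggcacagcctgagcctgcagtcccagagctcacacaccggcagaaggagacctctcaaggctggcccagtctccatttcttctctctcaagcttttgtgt
The single match, TGAGTCA in Rab34, covers bases 193 to 199 of the window and starts 58 bases before the transcription start. Promoters were listed for 48 of the 59 Rab genes, Rab4a not among them, 60 windows in all, and 3 of the 60 (5.0%, Rab15, Rab34 and Rab39b) held TGANTCA on either strand, against 7.81% of all 32851 windows. The related motif TGACGTCA, which shares no match with the first, was in 2 Rab windows (3.33%, Rab25 and Rab5a), against 1.79% of all. A match describes letters in this window and is not a measured binding site.

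No other Rab gene passed between the genotypes at day 3. Without Rab4a, Rab34, Rab6b and Rab10, differences ran from -0.30 for Rab26 to 0.23 for Rab3c, which was near background. Apart from the genes that passed, 7 others had groups that did not overlap, lower in Batf-/- cells for Rab11b, Rab12, Rab26, Rab27a, Rab33b and Rab43 and higher for Rab3d. Groups did not overlap for 11 Rab genes in all (18.6%), against 12.8% of all genes, and for 10 of them Batf-/- cells were lower (16.9%, against 5.34% of all genes). Rab7, the Rab of late endosomes and lysosomes, averaged 10.14 in Batf-/- and 10.15 in wild-type cells at day 3, with a difference of -0.01 ± 0.06 that did not pass.

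In naive cells 0 Rab genes passed between the genotypes in limma, while 1.08% of all genes did (0.813% higher and 0.264% lower), and 9 Rab genes (15.3%) had an unadjusted p below 0.05, near the 13.6% of all genes. The groups did not overlap for 14 Rab genes (23.7%), against 24.5% of all genes, 6 of them higher in Batf-/- cells and 8 lower. Without Batf-/- naive replicate 1, Rab4a passed with -0.91 (limma adjusted p = 0.0303). In that fit 313 genes passed in all, against 196 with all arrays. Over the alternatives the naive Rab4a difference ran from -0.91 to -0.56, with limma adjusted p between 0.0303 and 0.776. Rab31 had the widest difference in the other direction, 0.81 ± 0.40, and its level was 8.53, 6.60 and 7.14 in Batf-/- naive arrays, against 6.47 and 6.75 in wild-type naive arrays. The highest of these was the array with the most neutrophil and monocyte marker signal, and without it the Rab31 difference was 0.26.

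**Figure D2:**
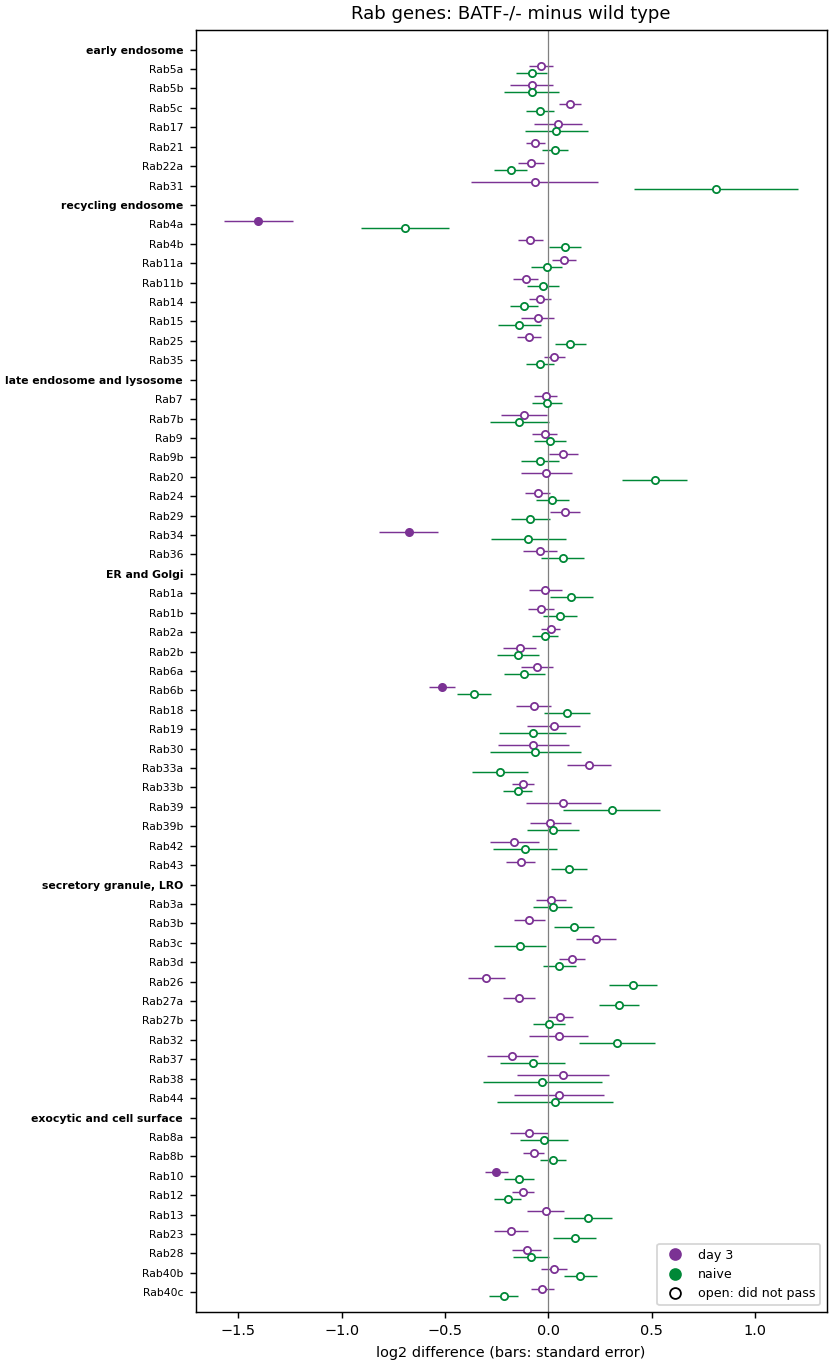
Log2 difference, Batf-/- minus wild type, of all 59 Rab genes, grouped by compartment, at day 3 (purple) and in naive cells (green), with bars of 1 SE; filled points passed an adjusted p below 0.05 in limma. The 4 filled points are Rab4a, Rab34, Rab6b and Rab10 at day 3, and no naive point is filled.

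Most of the family differed between naive and day 3 arrays in both genotypes. Markers of other cell types differed between these arrays too, so the part of stimulation alone cannot be told apart. From naive to day 3, 11 Rab genes rose and 24 fell in Batf-/- cells (59.3% of the Rab genes, where 47.0% of all genes passed, 23.8% higher and 23.2% lower). In wild-type cells 13 rose and 21 fell (57.6%, where 45.4% of all genes passed, 22.4% higher and 23.0% lower). Dim genes lower the shares of all genes given here and below. Without the dim 40% of probe sets, 7754 of 11783 genes passed in Batf-/- and 7625 in wild-type cells. Whether the Rab share differs from that of equally bright genes was not tested. The median difference of the Rab genes was -0.11 in Batf-/- and -0.05 in wild-type cells, against 0.05 for all genes in each. Day 3 and naive arrays did not overlap for 12 higher and 24 lower Rab genes in Batf-/- cells (61.0%, against 48.2% of all genes, 25.0% higher and 23.2% lower). In wild-type cells, with 2 naive arrays, this held for 16 higher and 25 lower Rab genes (69.5%, against 58.3% of all genes, 30.3% higher and 28.0% lower). All 11 that rose in Batf-/- cells also rose in wild-type cells, which is 84.6% of the 13. The 21 that fell in wild-type cells also fell in Batf-/- cells, which is 87.5% of the 24. No Rab gene passed in opposite directions, and 22 passed in neither genotype. The same overlap was not counted over all genes, so it is not shown to be particular to the Rab genes.

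**Figure D3:**
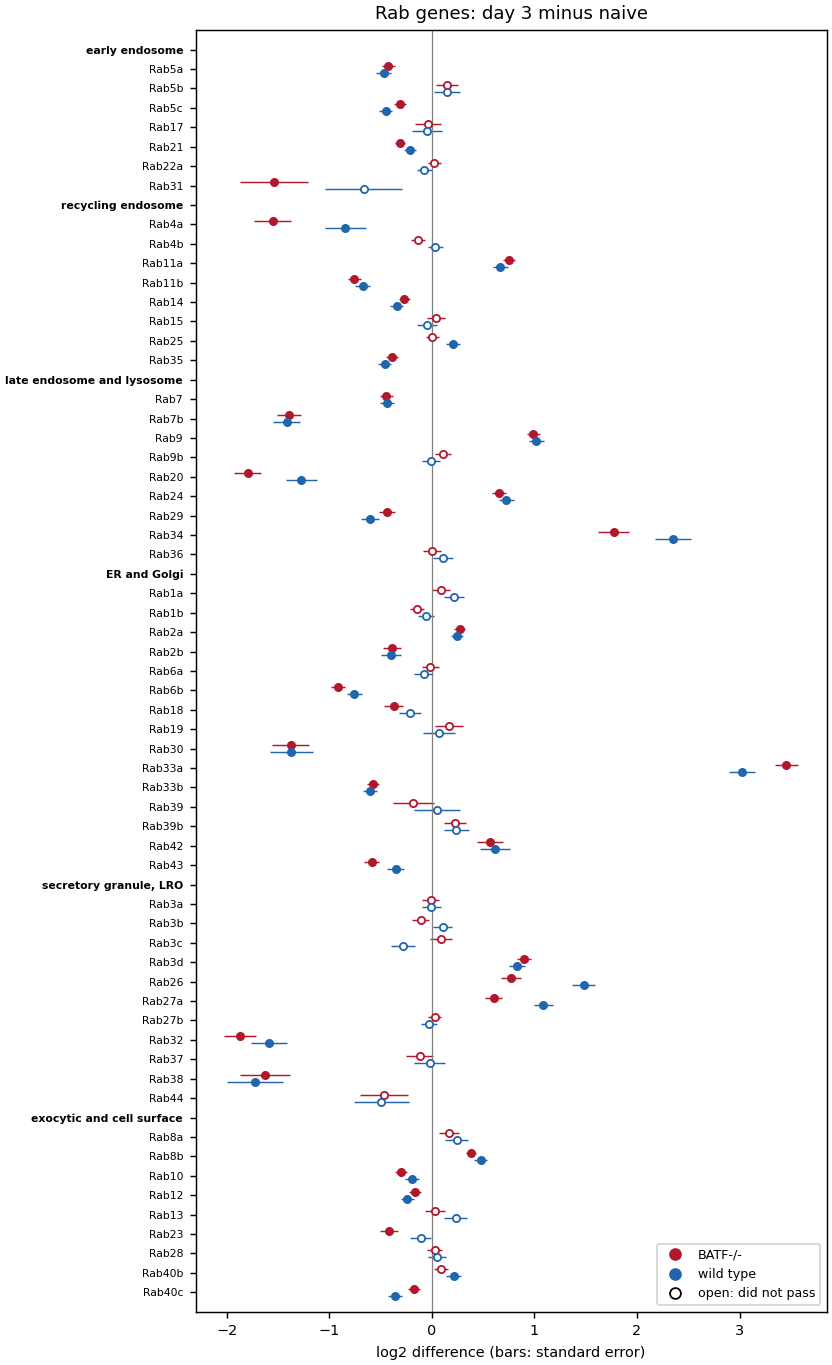
Log2 difference, day 3 minus naive, of all 59 Rab genes, grouped by compartment, in Batf-/- (red) and wild-type cells (blue), with bars of 1 SE; filled points passed an adjusted p below 0.05 in limma. Rab33a and Rab34 lie farthest to the right, and Rab32, Rab20, Rab38 and Rab4a are among those farthest to the left.

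Among the 11 Rabs of secretory granules and lysosome-related organelles, Rab3d, Rab26 and Rab27a rose and Rab32 and Rab38 fell in both genotypes. That is 45.5% of the group, near the share of all genes that passed in each genotype (47.0% in Batf-/- and 45.4% in wild-type cells). Rab27a was at 9.54, 9.65, 9.62 and 9.60 in Batf-/- arrays at day 3, against 9.25, 8.87 and 8.89 in Batf-/- naive arrays. Wild-type arrays had 9.76, 9.76, 9.75 and 9.70 at day 3, against 8.66 and 8.65 in naive cells. Day 3 arrays were thus above naive arrays in each genotype, with the Batf-/- naive arrays above the wild-type naive arrays. The rise was 0.60 ± 0.08 in Batf-/- cells and 1.09 ± 0.09 in wild-type cells (limma adjusted p = 3.77e-05 and 5.86e-07). Other bright Rab27a probe sets rose by 0.99 and 0.91 in Batf-/- and by 1.73 and 1.33 in wild-type cells. The genotypes' changes differed by -0.48 ± 0.12 (limma adjusted p = 0.116), and by -0.36 without Batf-/- naive replicate 1 (limma adjusted p = 0.0448). The difference was thus smaller without that array, while the genes that passed in all rose from 118 to 270.

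Rab26, known from secretory granules and synaptic vesicles, showed the same order. It was at 5.84, 5.81, 5.93 and 5.84 in Batf-/- arrays at day 3, against 5.12, 5.04 and 5.10 in Batf-/- naive arrays. In wild-type arrays it was at 6.18, 6.04, 6.24 and 6.16 at day 3, against 4.42 and 4.94 in naive arrays, a mean near background. The rises were 0.77 ± 0.10 in Batf-/- and 1.48 ± 0.11 in wild-type cells, the second from a mean just below the cut. Their difference of -0.71 ± 0.15, which takes in that mean, missed the threshold (limma adjusted p = 0.0581). That difference ran from -0.97 to -0.45 over the alternatives, with adjusted p between 0.00366 and 0.192. Rab3d, a Rab of exocrine and mast cell granules, rose by 0.89 ± 0.07 in Batf-/- and 0.83 ± 0.08 in wild-type cells.

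**Figure D4:**
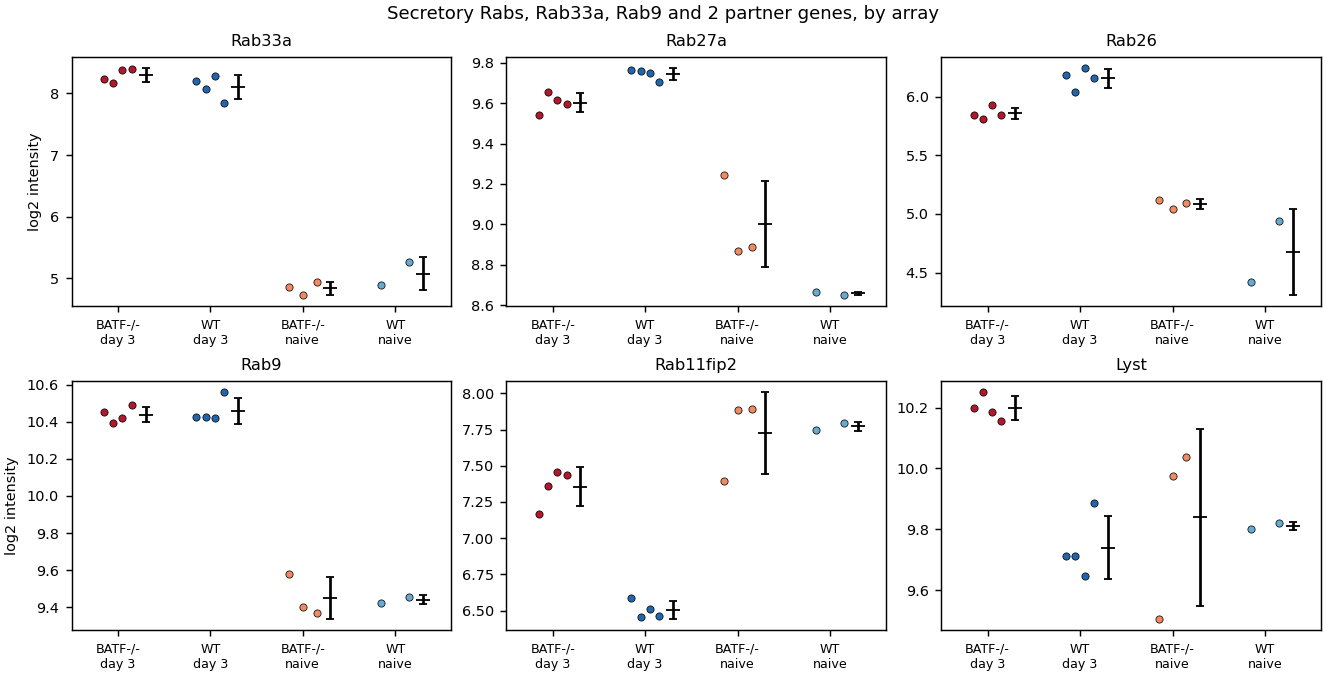
Log2 intensity of Rab33a, Rab27a, Rab26, Rab9 and the partner genes Rab11fip2 and Lyst by array (points), with the group mean and SD beside them and each panel on its own axis. For Rab27a and Rab26 the wild-type arrays are above the Batf-/- arrays at day 3 and below them in naive cells.

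Rab32 and Rab38 direct cargo to melanosomes and related organelles. Rab32 was at 5.22, 5.27, 5.15 and 5.24 in Batf-/- arrays at day 3, against 7.58, 6.80 and 6.89 in Batf-/- naive arrays. Wild-type arrays had 5.13, 5.17, 5.14 and 5.24 at day 3, against 6.54 and 6.97 in naive arrays. The day 3 arrays of both genotypes lay close together and far below all naive arrays. The fall was -1.87 ± 0.15 in Batf-/- and -1.59 ± 0.18 in wild-type cells. Rab38 fell by 1.63 ± 0.24 in Batf-/- and by 1.73 ± 0.27 in wild-type cells, and a second probe set gave -2.83 and -3.28. Rab3a, Rab3b, Rab3c, Rab27b, Rab37 and Rab44 passed in neither genotype.

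Rab20, an endosomal and phagosomal Rab of macrophages, and Rab31, which acts between the Golgi and endosomes, fell alongside them in Batf-/- cells. Rab20 was near background in both genotypes at day 3, at 4.22, 3.76, 4.01 and 4.21 in Batf-/- arrays and 3.96, 3.95, 4.14 and 4.19 in wild-type arrays. In naive arrays it was at 6.10, 5.57 and 5.87 in Batf-/- cells, against 5.27 and 5.40 in wild-type cells. Its falls of -1.80 ± 0.13 and -1.27 ± 0.15 in Batf-/- and wild-type cells end near background, so that their sizes are uncertain. Naive arrays also carried more monocyte and macrophage marker signal, whose part in these falls was not tested. Rab31 fell by 1.54 ± 0.33 in Batf-/- cells, while its difference of -0.67 ± 0.38 in wild-type cells did not pass (limma adjusted p = 0.174). For these genes and Rab32 and Rab38, Batf-/- naive replicate 1 had the highest level of all 13 arrays. Without it the Batf-/- differences were -1.62 for Rab32, -1.67 for Rab20, -1.25 for Rab38 and -0.99 for Rab31, and all still passed. In the same fit the wild-type difference of Rab31 passed with an adjusted p of 0.00991.

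**Figure D5:**
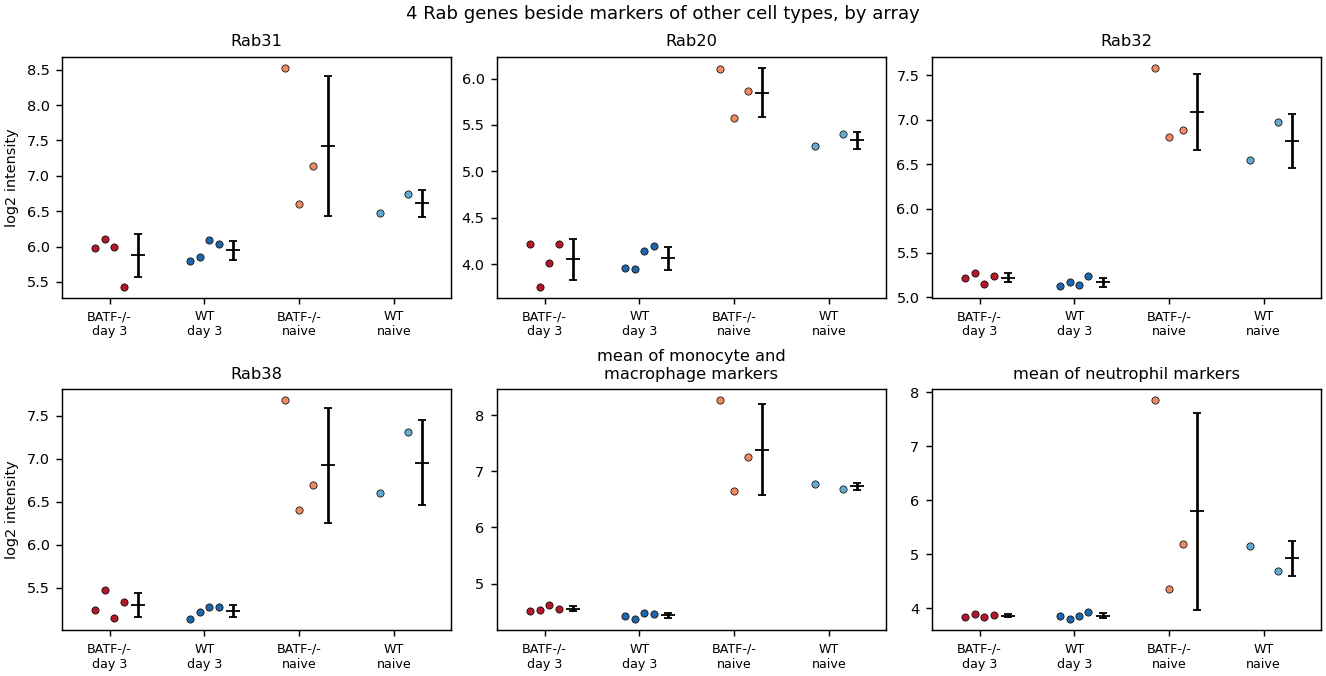
Log2 intensity by array (points) of Rab31, Rab20, Rab32 and Rab38, and the mean log2 intensity of 9 monocyte and macrophage markers and of 9 neutrophil markers, with the group mean and SD beside them. All are higher in naive than in day 3 arrays, and the highest value of each is from Batf-/- naive replicate 1.

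In the group of 15 ER and Golgi Rabs, 3 rose and 6 fell in Batf-/- cells and 3 rose and 5 fell in wild-type cells. The shares that passed were 60.0% and 53.3%, against 47.0% and 45.4% of all genes in Batf-/- and wild-type cells. Rab33a, found on Golgi-derived vesicles, gave the largest rise of any Rab gene. It was at 8.24, 8.17, 8.38 and 8.40 in Batf-/- arrays at day 3, against 4.86, 4.73 and 4.93 in Batf-/- naive arrays. In wild-type arrays it was at 8.20, 8.06, 8.28 and 7.84 at day 3, against 4.89 and 5.26 in naive arrays. The naive levels were just above background, and the rises were 11.0-fold in Batf-/- cells (3.46 ± 0.11) and 8.13-fold in wild-type cells (3.02 ± 0.13). They differed by 0.43 ± 0.17, which did not pass (limma adjusted p = 0.338). Its paralog Rab33b, a Golgi Rab that binds the autophagy protein Atg16l1, fell by 0.58 ± 0.06 in Batf-/- and by 0.60 ± 0.07 in wild-type cells.

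Rab6b fell by 0.91 ± 0.07 in Batf-/- and by 0.76 ± 0.08 in wild-type cells, while Rab6a did not pass in either (-0.02 ± 0.08 and -0.08 ± 0.09). One of the other bright Rab6b probe sets passed in both genotypes with -0.66 and -0.70, and another gave -0.12 and 0.01. Rab2b and Rab43 also fell in both genotypes, and Rab18, which acts on lipid droplets and the ER, fell by 0.37 ± 0.09 in Batf-/- cells (wild type -0.21 ± 0.10, not passed). Rab2a, which works between the ER and the Golgi, rose by 0.27 ± 0.05 and 0.24 ± 0.06, but 2 of its other bright probe sets passed in the opposite direction, so its direction is uncertain. Rab30 fell and Rab42 rose in both genotypes, with all group means near background, so that their sizes have no reading. Rab1a, needed for transport from the ER to the Golgi, was the brightest probe set of this group and passed in neither (0.09 ± 0.09 and 0.22 ± 0.10), nor did Rab1b, Rab6a, Rab19, Rab39 and Rab39b.

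Late endosome and lysosome Rabs moved both ways, with 3 of 9 higher and 4 lower in each genotype (77.8%, against 47.0% of all genes in Batf-/- and 45.4% in wild-type cells). Rab9, which returns receptors from late endosomes to the Golgi, was at 10.45, 10.39, 10.42 and 10.49 in Batf-/- arrays at day 3, against 9.58, 9.40 and 9.37 in Batf-/- naive arrays. In wild-type arrays it was at 10.43, 10.42, 10.42 and 10.56 at day 3, against 9.42 and 9.46 in naive arrays. The arrays of the genotypes overlapped at each time, and the rises were 0.99 ± 0.06 and 1.02 ± 0.07. Rab34, near background in naive cells, rose 3.42-fold in Batf-/- cells (1.77 ± 0.15) and 5.10-fold in wild-type cells (2.35 ± 0.17). These rises differed by -0.58 ± 0.23 without passing (limma adjusted p = 0.333), while on the second Rab34 probe set they differed by -1.11 (limma adjusted p = 0.00712). The autophagy-linked Rab24 rose by 0.65 ± 0.07 in Batf-/- and by 0.72 ± 0.07 in wild-type cells.

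Rab7, which drives the fusion of late endosomes with lysosomes, was at 10.24, 10.11, 10.09 and 10.11 in Batf-/- arrays at day 3, against 10.61, 10.59 and 10.54 in Batf-/- naive arrays. Wild-type arrays had 10.13, 10.17, 10.12 and 10.18 at day 3, against 10.51 and 10.67 in naive arrays. It was lower at day 3 in each genotype without overlap, by 0.44 ± 0.06 and 0.44 ± 0.07. Rab29 fell by 0.44 ± 0.08 and 0.61 ± 0.09, and Rab7b, a Rab of endosome to Golgi transport, by 1.39 ± 0.12 and 1.42 ± 0.13, to means near background at day 3. Rab9b and Rab36 passed in neither genotype.

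Of the early endosome Rabs 0 of 7 rose, and 4 fell in Batf-/- and 3 in wild-type cells. In groups this small the counts say little, since 23.8% of all genes rose and 23.2% fell in Batf-/- cells, and 22.4% rose and 23.0% fell in wild-type cells. Rab5c, a regulator of the fusion of early endosomes, was at 9.99, 10.01, 9.99 and 9.92 in Batf-/- arrays at day 3, against 10.33, 10.29 and 10.24 in Batf-/- naive arrays. In wild-type arrays it was at 9.86, 9.81, 9.94 and 9.89 at day 3, against 10.27 and 10.38 in naive arrays. The falls were -0.31 ± 0.06 in Batf-/- and -0.45 ± 0.07 in wild-type cells. Rab5a (-0.43 ± 0.06 and -0.47 ± 0.07) and Rab21, which acts in integrin traffic (-0.31 ± 0.05 and -0.21 ± 0.06), also fell, and Rab5b, Rab17 and Rab22a passed in neither.

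The 8 recycling endosome Rabs split as well. Rab11a, the main Rab of the recycling compartment, was at 10.74, 10.77, 10.87 and 10.85 in Batf-/- arrays at day 3, against 10.14, 10.00 and 10.02 in Batf-/- naive arrays. In wild-type arrays it was at 10.66, 10.68, 10.79 and 10.80 at day 3, against 10.10 and 10.03 in naive arrays. It rose by 0.75 ± 0.06 and 0.67 ± 0.07 in Batf-/- and wild-type cells, while its paralog Rab11b fell by 0.76 ± 0.06 and 0.67 ± 0.07. Rab4a fell by 1.55 ± 0.18 in Batf-/- and by 0.84 ± 0.20 in wild-type cells, a difference of -0.71 ± 0.27 that did not pass (limma adjusted p = 0.307). The wild-type fall was lost without wild-type naive replicate 2 (limma adjusted p = 0.0524). Rab14 (-0.27 ± 0.06 and -0.34 ± 0.07) and Rab35 (-0.39 ± 0.06 and -0.46 ± 0.06) fell in both genotypes, Rab25 rose in wild-type cells (0.20 ± 0.07, Batf-/- 0.01 ± 0.06), and Rab4b and Rab15 passed in neither.

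In the exocytic and cell surface group of 9, Rab8b, which acts on vesicles bound for the plasma membrane, rose in both genotypes (0.38 ± 0.05 in Batf-/- and 0.47 ± 0.06 in wild-type cells). Rab10, Rab12 and Rab40c fell in both, and Rab23, known from Hedgehog signalling, fell in Batf-/- cells (-0.42 ± 0.09, wild type -0.11 ± 0.10). Rab10 fell by 0.30 ± 0.06 in Batf-/- and by 0.19 ± 0.07 in wild-type cells. The wild-type call was lost in 6 alternatives, 4 of which left out 1 array, and one other bright Rab10 probe set gave 0.20 in wild-type cells without passing. Rab40b passed in wild-type cells at levels near background, and Rab8a, Rab13 and Rab28 passed in neither genotype. No Rab gene passed the test of a difference between the genotypes in the stimulation change (0 of 59, against 0.649% of all genes in limma, 0.165% higher and 0.484% lower), and 8 (13.6%) had an unadjusted p below 0.05, near the 11.9% of all genes. A call in only 1 genotype, as for Rab18, Rab23, Rab25, Rab31 and Rab40b, is therefore not shown to be a difference between them.

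The genes that load, switch and read Rabs were followed in 6 lists, with 147 of 164 genes measured apart from the Rabs. Between the genotypes at day 3, 6 of them rose in Batf-/- cells and 0 fell (4.08%, against 1.37% of all genes, 0.665% higher and 0.709% lower). Rab11fip2, an effector that ties Rab11 to myosin V, was at 7.17, 7.36, 7.46 and 7.44 in Batf-/- arrays, against 6.59, 6.46, 6.51 and 6.46 in wild-type arrays. In naive cells it was at 7.40, 7.89 and 7.89 in Batf-/- arrays, against 7.75 and 7.80 in wild-type arrays, so that the groups overlapped. It was 1.80-fold higher in Batf-/- cells at day 3 (0.85 ± 0.10, n = 4 each, limma adjusted p = 0.00121). Rab11fip2 fell on stimulation by 0.37 ± 0.11 in Batf-/- and by 1.27 ± 0.13 in wild-type cells, and these changes differed by 0.90 ± 0.17 (limma adjusted p = 0.0332). That call was lost in 12 of 22 alternatives, 9 of which left out 1 array, and the difference was 0.51 when its probe sets were averaged (limma adjusted p = 0.169).

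Lyst, the lysosomal trafficking regulator that is mutated in Chediak-Higashi syndrome, was at 10.20, 10.25, 10.18 and 10.15 in Batf-/- arrays at day 3, against 9.71, 9.71, 9.65 and 9.89 in wild-type arrays. Prf1, the pore-forming protein perforin, was at 8.46, 8.33, 8.41 and 8.36 in Batf-/- arrays, against 7.74, 7.87, 7.86 and 7.68 in wild-type arrays. Neither gene's groups overlapped, and the differences were 0.46 ± 0.10 for Lyst and 0.61 ± 0.09 for Prf1 (limma adjusted p = 0.0414 and 0.00614). When the probe sets of each gene were averaged, the differences were 0.22 for Lyst and 0.26 for Prf1 and neither passed (limma adjusted p = 0.213 and 0.0989). The Lyst call was lost in 12 of 23 alternatives, 9 of which left out 1 array, and the Prf1 call in 1. Lrrk1, a kinase of endosomal traffic (0.38 ± 0.08), Ift27, a Rab-like GTPase of cilia (0.31 ± 0.05), and Myrip, which links Rab27a to myosin VIIa (0.44 ± 0.10, near background), were also higher. These calls were lost in 7 of 23 alternatives for Lrrk1, 3 of 23 for Ift27 and 11 of 22 for Myrip, of which 6, 1 and 8 left out 1 array. Among these lists 0 genes passed between the genotypes in naive cells, where 1.08% of all genes did, so that the 0 says little about the lists.

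On stimulation, 66.0% of the genes in these lists passed in Batf-/- and 58.5% in wild-type cells, against 47.0% of all genes in Batf-/- cells (23.8% higher and 23.2% lower) and 45.4% in wild-type cells (22.4% higher and 23.0% lower). Without the dim 40% of probe sets, 7754 of 11783 genes passed in Batf-/- and 7625 in wild-type cells. The lists are therefore not shown to differ from equally bright genes. Among the genes in these lists, 3 of 7 genes of prenylation and membrane extraction rose and 4 fell in Batf-/- cells, and 3 rose and 3 fell in wild-type cells. Rabggtb, a subunit of the enzyme that attaches prenyl groups to Rabs, rose by 0.51 ± 0.07 and 0.65 ± 0.08, and the Rab-binding Rabif fell by 0.67 ± 0.05 and 0.84 ± 0.06. Among 32 exchange factors, 7 rose and 15 fell in Batf-/- and 6 rose and 12 fell in wild-type cells (68.8% and 56.2% in all). The DENN domain genes Dennd2c (1.82 ± 0.11 and 1.94 ± 0.13) and Dennd4a, an exchange factor for Rab10 (1.42 ± 0.10 and 1.76 ± 0.12), rose most. Dennd2d fell by 0.59 ± 0.11 in Batf-/- and by 0.92 ± 0.12 in wild-type cells.

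Of 35 GTPase activating proteins, 9 rose and 10 fell in Batf-/- cells, and 8 rose and 11 fell in wild-type cells. That is 54.3% in each genotype, against 47.0% and 45.4% of all genes. Tbc1d7, also a subunit of the TSC complex, rose by 1.66 ± 0.09 and 1.52 ± 0.10, while Evi5 fell by 1.98 ± 0.19 and 1.62 ± 0.21. Of 41 effectors, 12 rose and 13 fell in Batf-/- and 11 rose and 13 fell in wild-type cells (61.0% and 58.5%). The Rab27 effector Sytl1 (1.43 ± 0.10 and 1.31 ± 0.12) and Rilpl2 (1.37 ± 0.06 and 1.30 ± 0.07) rose most.

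In the 20 genes of cytotoxic granule exocytosis, which include Rab27a and Rab7, 9 rose and 6 fell in Batf-/- cells, and 8 rose and 5 fell in wild-type cells (75.0% and 65.0%, against 47.0% and 45.4% of all genes). The granule protease Gzmb rose by 5.67 ± 0.13 and 6.14 ± 0.15. Prf1 fell by 0.52 ± 0.10 and 0.87 ± 0.11, and the SNARE protein Vamp8 by 0.71 ± 0.08 and 0.53 ± 0.10. Of 18 Rab-like and Arf family GTPases, 9 rose and 4 fell in Batf-/- and 7 rose and 3 fell in wild-type cells (72.2% and 55.6%). Arf3 fell by 0.93 ± 0.07 in Batf-/- and by 0.85 ± 0.08 in wild-type cells, and Ift22 rose by 0.49 ± 0.14 and 0.94 ± 0.16.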

How the data were processed

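RNA of 13 samples was hybridised to oligonucleotide arrays. The authors deposited probe set intensity values on a linear scale, made with RMA (no version given), per the submitters' processing notes. RMA corrects background, normalises arrays together and combines the probes of a set. Array medians lay between 31.5 and 32.5. Precision is limited by how many arrays a group has. Values were converted to log2 here and not normalised again. Of 45101 probe sets, 34958 have 1 gene, 932 several and 9211 none, 64 of them controls. Gene names came from the platform table. The highest mean over all arrays chose 1 probe set for each of 18194 genes, including 59 Rab genes with 132 probe sets, 38 of them with a choice. The chosen sets of Rab4a, Rab14, Rab22a, Rab3a, Rab27b, Rab38 and Ift27 are of types that can match related transcripts.

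Group means of all 13 arrays were fitted with limma 3.58.1 in R 4.3.3 (9 residual and 3.702 prior degrees of freedom) and 5 contrasts tested with moderated, two-sided tests, adjusted by Benjamini-Hochberg over all genes. Values are differences ± SE. Values for other probe sets come from a fit over all single-gene probe sets. That fit was chosen after seeing the data. Rab genes that passed on stimulation in Batf-/- cells had 35 other bright probe sets. Of these, 25 passed in the same direction, 2 passed in the opposite one and 8 did not pass. In wild-type cells there were 33, with 20, 2 and 11 in the same order. The analysis was tested on simulated data. Samples with the same replicate number showed no shared deviation from their group means (r between -0.258 and 0.039). The wild-type naive arrays can only deviate by equal amounts in opposite directions, which fixes each r with them up to its sign. With groups this small, the check cannot exclude that the numbers mark shared mice, cultures or days. The main fit did not pair arrays.

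Genes were named by a rule. It took Rab genes that passed between genotypes and the 8 largest called rises and falls without overlap in each stimulation contrast. It also took the brightest Rab of each role, Rab27a, Rab7, Batf, and partner genes that passed between genotypes. Of the partner genes with the largest called rises and falls on stimulation, only some are named. Other Rab genes are named to account for every member. Roles were assigned from textbook knowledge. The members, lists and rule were chosen with earlier results of these data known.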

Additional observations from a re-analysis of the deposited data

Results flagged for a closer look

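Named Rab and partner genes were checked in the 58 groups of 4 arrays for an array far from the rest, where chance flags about 5% of groups. Rab7 was at 10.24 in Batf-/- day 3 replicate 1, against 10.09 to 10.11 in the other arrays of that group. Rab9 was at 10.56 in wild-type day 3 replicate 4, against 10.42 to 10.43 in the others. Rab30, near background, was at 2.68 in wild-type day 3 replicate 3, against 3.16 to 3.21 in the others. The stimulation change of Rab11fip2 differed between the genotypes by 0.90 in an interaction test (limma adjusted p = 0.0332), with a range of 0.51 to 0.98 over the alternatives. The direction was kept in all 22 alternatives, and the call was lost in 12 of them, 9 of which left out 1 array.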

How the results depend on the processing

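Alternatives varied the scaling (quantile normalisation, median centring), the filter (no dim probe sets, the lowest 40%), the probe set rule (all sets of a gene averaged, or all single-gene sets fitted), the spread model (intensity trend, robust estimation, array quality weights, replicate block, compared groups alone), the transform (log2(value + 16)) and the arrays (each left out in turn). Of the Rab genes, 4 passed between the genotypes at day 3, with 2 under the replicate block, 2 to 4 when 1 array was left out, and 5 with array quality weights and with the compared groups alone, where Rab26 also passed (-0.29, adjusted p = 0.0324, and -0.30, adjusted p = 0.0169); Rab4a and Rab6b passed in every one of these fits. In naive cells 0 passed, with 1 after centring, 1 without dim probe sets, 2 with array quality weights, 1 with log2(value + 16) and 0 to 3 without 1 array, the 3 without Batf-/- naive replicate 2 being Rab20, Rab27a and Rab6b. For the difference in stimulation changes 0 passed, with 1 without dim probe sets, 1 with probe sets averaged, 2 with array quality weights, 1 with log2(value + 16) and 0 to 2 without 1 array. On stimulation 33 to 39 Rab genes passed in Batf-/- cells and 29 to 39 in wild-type cells without 1 array. The replicate block lost Rab34 (adjusted p = 0.0822) and Rab10 (adjusted p = 0.0891) at day 3. Over all genes, the day 3 genotype count was 250 of 18194, between 122 and 1306 under the alternatives. It was 1306 with array quality weights, 689 with the compared groups alone and 125 under the replicate block. Without dim probe sets it was 375 of 11783. The 5 Rab genes with array quality weights thus come with many more calls over all genes. The naive count was 196, between 1 with the compared groups alone and 627 without Batf-/- naive replicate 2. With array quality weights it was 459. For the difference in stimulation changes the count was 118, and 542 with array quality weights. Of 3942 recomputed values of named genes, 3819 kept their side of the threshold, 32 passed newly and 91 no longer passed, and no called value changed sign. The causes were not tested. Groups of 2 to 4 arrays limit the precision, most of all in naive cells. Intensities near background leave the size of the changes of Rab20, Rab7b and Rab34 uncertain, and that of Rab26 in wild-type cells.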
